A study of Mus musculus with 18 samples.

Results

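The matrix metalloproteinases (MMPs), the ADAMTS proteases with the ADAMTS-like proteins, and the tissue inhibitors of metalloproteinases (TIMPs) were examined across 18 RNA sequencing libraries of cultured mouse lung cells. Members were all rows whose gene symbol began with Mmp, Adamts or Adamtsl and a number, or with Timp and a number, which gave 40 of the 15288 genes in the deposited table. They comprised 18 MMPs, 16 ADAMTS proteases, 3 ADAMTS-like proteins and 3 TIMPs. The 28 members with a mean of at least 1 CPM (the deposited unit, reads scaled to the same total over the listed genes in each library) over the 18 libraries were tested, and the other 12 are reported as low.

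All libraries came from cells labelled as mouse pulmonary microvascular endothelial cells, while the title of the series speaks of pulmonary vascular smooth muscle cells. The cells were transfected with a scrambled siRNA or one that targets CYP1B1 (siCYP1B1), a cytochrome P450 that metabolizes estradiol. They then received vehicle, 1 uM E2 (estradiol) or 1 uM 16aOHE for 24 hours, which makes 6 groups of 3 libraries. Every group thus carried an siRNA, none was left untransfected, and each estrogen had 1 dose and 1 time. 16aOHE is the usual short name of an estrone with an added hydroxyl group, a metabolite that also carries a ketone where estradiol has a hydroxyl group. Nothing in the labels ties the 3 libraries of a group to different cultures, and the p-values therefore reflect library-to-library spread that may be technical.

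MMPs are zinc-dependent endopeptidases that are made as inactive precursors and that, once activated, cut collagens, proteoglycans and other proteins of the extracellular matrix. Some are secreted and others are held at the cell surface by a membrane anchor. ADAMTS proteases are secreted relatives with thrombospondin repeats, and different members trim procollagens, cut the proteoglycans versican and aggrecan, or act on fibrillin microfibrils. ADAMTS-like proteins have the thrombospondin repeats without the protease domain. TIMPs bind the active site of these enzymes and block it, and Timp3 is known for inhibiting several ADAM and ADAMTS proteases as well. In lung vessels the balance of proteases and inhibitors is known for its part in the remodelling of the vessel wall.

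Cyp1b1 itself, the siRNA target, averaged 92.2 ± 3.58 CPM (SD, n = 3) with scrambled siRNA and vehicle and 81.5 ± 0.724 with siCYP1B1 and vehicle. With E2 it averaged 118 CPM with scrambled siRNA and 103 with siCYP1B1, and with 16aOHE 106 and 90.1 CPM. The mean log2 difference of siCYP1B1 from scrambled siRNA over the 3 arms was -0.20 (limma, adjusted p = 5.83e-08). Cyp1b1 was called higher with E2 than with vehicle in scrambled cells (0.35) and siCYP1B1 cells (0.33). The same held for 16aOHE (0.20 and 0.14). Its siCYP1B1 E2 mean was thus above its scrambled vehicle mean. The defining endothelial markers Pecam1 and Vwf averaged 0.0481 and 0.0305 CPM over the 18 libraries, while other endothelial markers, Cd34, Flt1 and Esam, averaged 107, 70.0 and 18.9 CPM. The smooth muscle markers Myh11 and Cnn1 averaged 0.0764 and 0.106 CPM, and Smtn and Acta2 averaged 90.1 and 20.5 CPM. The mesothelial markers Msln and Upk3b averaged 1521 and 825 CPM, and Krt18 and Krt8, listed with them, averaged 3.87 and 0.522 CPM. Ptprc, which marks leukocytes, averaged 0.0312 CPM, while the leukocyte markers Csf1r, Cd68 and Cd14 averaged 0.680, 12.3 and 22.0 CPM. Depth, estimated from the steps of the low values, ranged from 14.1 to 38.5 reads per CPM, and 3 reads stood for 0.0780 to 0.213 CPM.

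The 12 low members were Adamts12, Adamts13, Adamts15, Adamts16, Adamts17, Adamts20, Mmp8, Mmp9, Mmp12, Mmp24, Mmp25 and Mmp27. Among them are gelatinase B (Mmp9), macrophage elastase (Mmp12), neutrophil collagenase (Mmp8) and the protease of von Willebrand factor (Adamts13). Mmp8 averaged 0.683 CPM (range 0.233 to 1.30), and Mmp27 averaged 0.357 CPM (range 0.175 to 0.599). Mmp9 was at 0 in 11 of 18 libraries and reached 0.132 CPM, which lies within the range that 3 reads stand for. When the 12 were tested together with all other genes, none was called in any of the 12 contrasts (limma), and their smallest adjusted p was 0.138.

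In the MMP family, 3 secreted enzymes were higher with the estrogens than with vehicle, the stromelysins Mmp3 and Mmp10 and the collagenase Mmp13. Stromelysins cut many matrix proteins and also activate other pro-MMPs, and Mmp13 cuts fibrillar collagen. With scrambled siRNA, Mmp3 stood at 4.60, 5.54 and 4.30 CPM with vehicle, at 7.28, 8.67 and 8.95 with E2 and at 9.06, 8.08 and 9.53 with 16aOHE. With siCYP1B1 it stood at 6.10, 5.08 and 6.18 CPM with vehicle, at 8.25, 6.67 and 8.77 with E2 and at 10.9, 10.3 and 8.68 with 16aOHE. All 12 estrogen-treated libraries lay above all 6 vehicle libraries. Differences are given from here on as differences of log2(CPM + 1), with adjusted p-values from limma over all 11835 genes tested and a threshold of 0.05. The Mmp3 difference from vehicle was 0.68 (SE 0.117, adjusted p = 0.000171) for E2 and 0.77 (SE 0.117, adjusted p = 0.000317) for 16aOHE with scrambled siRNA. With siCYP1B1 it was 0.39 (SE 0.117, adjusted p = 0.0175) for E2 and 0.69 (SE 0.117, adjusted p = 0.000968) for 16aOHE. The E2 call with siCYP1B1 was lost on leaving out siCYP1B1 vehicle 2 (adjusted p = 0.0935), siCYP1B1 E2 1 (adjusted p = 0.0626) or siCYP1B1 E2 3 (adjusted p = 0.0892).

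Mmp10 was low in all groups, so that each value rests on few reads. It stood at 1.20, 1.38 and 0.594 CPM with scrambled siRNA and vehicle, at 1.88, 2.16 and 2.18 with E2 and at 2.57, 2.03 and 1.71 with 16aOHE. The corresponding values with siCYP1B1 were 1.11, 1.17 and 0.870, then 1.68, 1.31 and 1.72, then 2.20, 1.74 and 2.07 CPM. In each siRNA the estrogen groups did not overlap the vehicle group. Mmp10 rose by 0.60 (SE 0.153, adjusted p = 0.00530) with E2 and by 0.60 (SE 0.153, adjusted p = 0.0272) with 16aOHE in scrambled cells, and by 0.55 (SE 0.153, adjusted p = 0.0367) with 16aOHE in siCYP1B1 cells. The E2 difference with siCYP1B1, 0.33 (SE 0.153, adjusted p = 0.122), did not pass. The 16aOHE call with scrambled siRNA was lost when only the groups compared were fitted (adjusted p = 0.0801) and on leaving out scrambled vehicle 3 (adjusted p = 0.160), scrambled 16aOHE 1 (adjusted p = 0.156) or scrambled 16aOHE 2 (adjusted p = 0.0748). The 16aOHE call with siCYP1B1 was lost in the fit of only the groups compared (adjusted p = 0.0805) and on leaving out siCYP1B1 vehicle 1 (adjusted p = 0.0723), siCYP1B1 vehicle 2 (adjusted p = 0.0677), siCYP1B1 vehicle 3 (adjusted p = 0.153), siCYP1B1 16aOHE 1 (adjusted p = 0.0856), siCYP1B1 16aOHE 2 (adjusted p = 0.0609) or siCYP1B1 16aOHE 3 (adjusted p = 0.0846).

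Mmp13 stood at 6.42, 5.37 and 4.39 CPM with scrambled siRNA and vehicle, at 8.20, 9.77 and 10.6 with E2 and at 6.46, 10.3 and 7.53 with 16aOHE. The siCYP1B1 cells had 5.39, 4.62 and 6.09 CPM with vehicle, 7.88, 7.65 and 8.70 with E2 and 8.89, 9.81 and 7.48 with 16aOHE. Every treated library was above every vehicle library of its siRNA, though the lowest scrambled 16aOHE library only just exceeded the highest scrambled vehicle library. Mmp13 rose by 0.72 (SE 0.144, adjusted p = 0.000676) with E2 in scrambled cells, and in siCYP1B1 cells by 0.52 (SE 0.144, adjusted p = 0.0106) with E2 and 0.61 (SE 0.144, adjusted p = 0.0147) with 16aOHE. The scrambled 16aOHE difference of Mmp13 was 0.50 (SE 0.144, adjusted p = 0.0574), and it passed under quantile normalization (adjusted p = 0.0458) and without scrambled vehicle 1 (adjusted p = 0.0380) or scrambled 16aOHE 1 (adjusted p = 0.0287). The E2 call in siCYP1B1 cells was lost on leaving out siCYP1B1 vehicle 2 (adjusted p = 0.0605). The 16aOHE call there was lost on leaving out siCYP1B1 vehicle 2 (adjusted p = 0.0791) or siCYP1B1 16aOHE 2 (adjusted p = 0.0849).

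**Figure D1:**
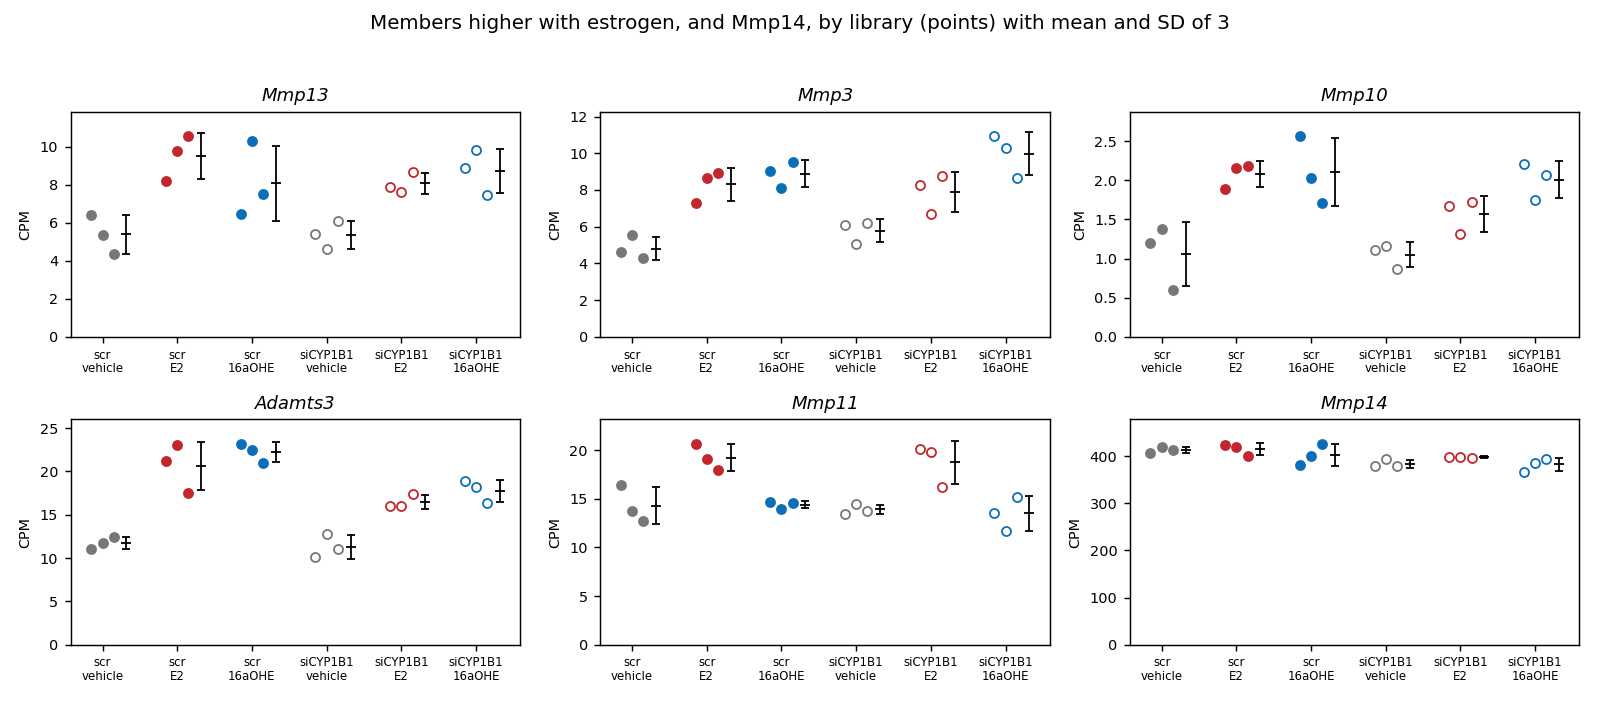
CPM of Mmp13, Mmp3, Mmp10, Adamts3, Mmp11 and Mmp14 in each library (points). Points are filled for scrambled siRNA and open for siCYP1B1, with the mean and SD of the 3 libraries of each group beside them. Mmp3, Mmp13 and Adamts3 sit higher with E2 and with 16aOHE than with vehicle in both siRNAs. Mmp11 sits higher with E2 alone, and the Mmp14 libraries range from 367 to 427 CPM.

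Mmp13, Mmp3 and Mmp10 lie in 1 cluster of 6 members on chromosome 9, from 7272514 to 7581885 on mm10, a span of 309 kb in the order Mmp13, Mmp12, Mmp3, Mmp10, Mmp8 and Mmp27. The other 3 members of the cluster were low. Of 8 tested genes outside the families within 500 kb of the cluster, 1 was called for E2 (Tmem123), with 0.18 (adjusted p = 0.00908) in scrambled and 0.16 (adjusted p = 0.0205) in siCYP1B1 cells, against 30.0% and 27.5% of all genes, and none was called for 16aOHE against vehicle in either siRNA, against 3.84% and 5.40%. Because the 3 tested members of the cluster moved in the same direction, the 250 bases before their start sites are shown from RefSeq on GRCm38.p6, 5′ to 3′ on the strand of the gene, with each match to TGANTCA in capitals. TGANTCA is the core sequence bound by AP-1, the family of Fos and Jun factors, and it reads the same way on both strands. The windows are chr9:7272264-7272513 for Mmp13, chr9:7445572-7445821 for Mmp3 and chr9:7502092-7502341 for Mmp10, all on the plus strand, with chr5:89883335-89883584 on the minus strand for Adamts3 as a member that also rose but lies on another chromosome.
Mmp13: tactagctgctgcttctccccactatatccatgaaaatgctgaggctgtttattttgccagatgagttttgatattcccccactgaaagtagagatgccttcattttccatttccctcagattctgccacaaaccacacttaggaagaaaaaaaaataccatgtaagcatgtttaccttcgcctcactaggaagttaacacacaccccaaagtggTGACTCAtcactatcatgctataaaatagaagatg
Mmp3: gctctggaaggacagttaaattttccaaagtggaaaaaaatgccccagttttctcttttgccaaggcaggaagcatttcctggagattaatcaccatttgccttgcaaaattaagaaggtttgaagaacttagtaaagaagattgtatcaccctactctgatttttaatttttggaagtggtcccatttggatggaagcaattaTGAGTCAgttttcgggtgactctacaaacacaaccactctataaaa
Mmp10: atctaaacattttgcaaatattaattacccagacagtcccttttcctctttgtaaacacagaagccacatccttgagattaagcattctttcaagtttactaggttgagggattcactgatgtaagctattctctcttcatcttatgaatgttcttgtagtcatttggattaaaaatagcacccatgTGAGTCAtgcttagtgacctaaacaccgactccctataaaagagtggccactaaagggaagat
Adamts3: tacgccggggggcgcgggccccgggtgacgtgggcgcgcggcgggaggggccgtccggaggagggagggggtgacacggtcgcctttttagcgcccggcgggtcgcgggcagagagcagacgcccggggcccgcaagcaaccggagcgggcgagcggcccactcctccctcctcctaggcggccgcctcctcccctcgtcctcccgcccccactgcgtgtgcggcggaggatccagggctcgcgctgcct
The match begins 35 bases before the start of Mmp13, 46 before that of Mmp3 and 63 before that of Mmp10. The RefSeq table held a promoter for 28 of the 40 members, which are not the 28 tested members. They include low members such as Adamts12 and Mmp8. Adamts4, Adamts5, Adamts6, Adamts7, Adamts10, Adamts15, Adamts16, Mmp2, Mmp9, Mmp16, Mmp17 and Mmp19 had no promoter there and were not searched. Of the 28 searched, 4 held a match, the 3 above and Mmp12, 44 bases before the start of 1 of its promoters. All 4 belong to the chromosome 9 cluster. Over all 32851 promoters in that table, 6.75% held the match in the same 250 bases. AGGAAG, the core that PEA3 factors bind, was found on either strand in 9 of the 28 members and in 29.5% of all promoters. The full palindromic estrogen response element, GGTCA and TGACC with 3 bases of any kind between them, was found in none of the 28 searched and in 0.0639% of all promoters. These are matches of letters within this window only, and binding was not measured.

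Mmp11, a stromelysin that is activated inside the cell, rose with E2 and was not called with 16aOHE. Scrambled libraries had 16.4, 13.8 and 12.8 CPM with vehicle, 20.7, 19.1 and 17.99 with E2 and 14.6, 14.0 and 14.6 with 16aOHE. Libraries with siCYP1B1 had 13.5, 14.5 and 13.8 CPM with vehicle, 20.2, 19.9 and 16.2 with E2 and 13.6, 11.7 and 15.2 with 16aOHE. All 6 E2 libraries except siCYP1B1 E2 3 (16.2 CPM) lay above all 12 others, and within each siRNA the E2 group overlapped neither of the other groups. The E2 difference from vehicle was 0.41 (SE 0.0986, adjusted p = 0.00343) with scrambled siRNA and 0.40 (SE 0.0986, adjusted p = 0.00440) with siCYP1B1, while the 16aOHE differences were 0.02 (95% interval -0.19 to 0.22) and -0.05 (95% interval -0.25 to 0.16). The direct difference of 16aOHE from E2 was -0.39 (SE 0.0986, adjusted p = 0.00769) with scrambled siRNA and -0.45 (SE 0.0986, adjusted p = 0.00307) with siCYP1B1.

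Adamts3 (chromosome 5, 89673841 to 89883334, minus strand), a procollagen N-proteinase that also takes part in activating the lymphatic growth factor VEGF-C, rose with both estrogens in both siRNAs. It went from 11.03, 11.7 and 12.4 CPM with scrambled siRNA and vehicle to 21.2, 23.1 and 17.6 with E2 and to 23.2, 22.5 and 21.0 with 16aOHE. In siCYP1B1 cells it went from 10.1, 12.8 and 11.03 CPM with vehicle to 16.0, 16.0 and 17.4 with E2 and to 18.8, 18.2 and 16.4 with 16aOHE. No treated library overlapped the vehicle libraries. The differences were 0.76 (SE 0.0935, adjusted p = 3.80e-06) for E2 and 0.87 (SE 0.0935, adjusted p = 4.24e-06) for 16aOHE with scrambled siRNA, and 0.51 (SE 0.0935, adjusted p = 0.000363) and 0.61 (SE 0.0935, adjusted p = 0.000364) with siCYP1B1. Its closest relatives by function, the procollagen N-proteinases Adamts2 and Adamts14, did not pass: the E2 difference of Adamts2 was -0.19 (adjusted p = 0.0892) with scrambled siRNA, where it passed as a fall under quantile normalization (-0.25, adjusted p = 0.0428), and that of Adamts14 was 0.10 (adjusted p = 0.570). Adamts2 was lower with E2 in siCYP1B1 cells, with a difference of -0.23 (SE 0.0832, adjusted p = 0.0419), a call lost with no filter (adjusted p = 0.0632) and on leaving out siCYP1B1 vehicle 1 (adjusted p = 0.0553), siCYP1B1 vehicle 2 (adjusted p = 0.189), siCYP1B1 E2 1 (adjusted p = 0.126) or siCYP1B1 E2 3 (adjusted p = 0.1002).

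Adamts1 and Adamts5, proteases that cut versican and aggrecan, had the largest falls with E2 among the members called in either siRNA. They lie next to each other on chromosome 16, on the minus strand, at 85793828 to 85803113 and at 85858157 to 85901125, with 55.0 kb between them. For Adamts1 the scrambled libraries had 107, 113 and 105 CPM with vehicle, 57.7, 63.0 and 61.8 with E2 and 92.6, 93.8 and 94.8 with 16aOHE. Under siCYP1B1 they had 85.2, 93.4 and 82.7 CPM, 47.9, 49.6 and 49.4 and 73.4, 73.7 and 77.4 in the same order. E2 libraries were lowest and vehicle libraries highest within each siRNA, with 16aOHE between them and no overlap. Adamts1 differed from vehicle by -0.82 (SE 0.0465, adjusted p = 5.05e-11) with E2 and -0.21 (SE 0.0465, adjusted p = 0.0114) with 16aOHE in scrambled cells, and by -0.82 (SE 0.0465, adjusted p = 8.36e-11) and -0.21 (SE 0.0465, adjusted p = 0.00792) in siCYP1B1 cells. The 16aOHE calls were the less firm ones: with scrambled siRNA the call was lost on leaving out scrambled vehicle 2 (adjusted p = 0.0786) or scrambled 16aOHE 1 (adjusted p = 0.0538), and with siCYP1B1 on leaving out siCYP1B1 vehicle 2 (adjusted p = 0.0623).

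Adamts5 showed the same order. Its levels with scrambled siRNA were 119.6, 132 and 129.6 CPM with vehicle, 70.3, 79.5 and 73.8 with E2 and 99.1, 95.96 and 98.0 with 16aOHE. With siCYP1B1 they were 91.0, 92.1 and 95.5 CPM with vehicle, 48.6, 56.4 and 54.1 with E2 and 73.8, 76.5 and 76.8 with 16aOHE. Again the 3 treatments did not overlap within an siRNA. The E2 difference of Adamts5 from vehicle was -0.76 (SE 0.0525, adjusted p = 1.37e-09) in scrambled and -0.80 (SE 0.0525, adjusted p = 8.46e-10) in siCYP1B1 cells, and the 16aOHE difference was -0.38 (SE 0.0525, adjusted p = 0.000123) and -0.29 (SE 0.0525, adjusted p = 0.00178). Other members known to cut proteoglycans did not pass: Adamts4 differed by 0.01 (adjusted p = 0.950) and Adamts9 by -0.02 (adjusted p = 0.901) for E2 with scrambled siRNA.

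Of the inhibitors, Timp1 and Timp3 fell with E2. Timp1 (chromosome X) had 112, 117 and 119.7 CPM with scrambled siRNA and vehicle, 96.3, 84.6 and 91.2 with E2 and 108, 106 and 113 with 16aOHE. In siCYP1B1 cells it had 109, 108 and 112 CPM with vehicle, 89.5, 88.5 and 86.9 with E2 and 94.0, 98.0 and 105 with 16aOHE. The E2 libraries did not overlap the vehicle libraries in either siRNA, and the differences were -0.36 (SE 0.0463, adjusted p = 7.40e-06) and -0.31 (SE 0.0463, adjusted p = 4.49e-05). Timp3 had 1765, 1849.8 and 1928 CPM with scrambled siRNA and vehicle, 1605, 1538 and 1576 with E2 and 1789.9, 1717 and 1844 with 16aOHE, and it differed with E2 by -0.23 (SE 0.0414, adjusted p = 0.000249) in scrambled cells and by -0.21 (SE 0.0414, adjusted p = 0.000584) in siCYP1B1 cells. Timp2 differed with E2 by -0.04 (SE 0.0280, adjusted p = 0.275) in scrambled cells and by -0.10 (SE 0.0280, adjusted p = 0.00839) in siCYP1B1 cells. The latter call did not hold under quantile normalization, where the Timp2 difference was 0.04 (adjusted p = 0.368). For 16aOHE against vehicle none of the 3 TIMPs was called in either siRNA, with adjusted p-values from 0.0639 (Timp1, siCYP1B1) to 0.863 (Timp2, scrambled).

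Mmp2, gelatinase A, and Mmp23, a membrane-bound MMP, also fell with E2, as did Adamtsl4, a protein of fibrillin microfibrils. Mmp2 had 198, 207 and 210.0 CPM with scrambled siRNA and vehicle, 186, 145 and 159 with E2 and 194, 176 and 202 with 16aOHE. Its siCYP1B1 libraries had 172, 165 and 158 CPM with vehicle, 147, 135 and 128 with E2 and 151, 149 and 166 with 16aOHE. The E2 differences of Mmp2 were -0.33 (SE 0.0710, adjusted p = 0.00122) and -0.27 (SE 0.0710, adjusted p = 0.00661) in scrambled and siCYP1B1 cells. Mmp14, the membrane-type MMP that activates pro-Mmp2 in a complex with Timp2, had 407, 419.8 and 413 CPM with scrambled siRNA and vehicle, 424, 419.8 and 402 with E2 and 381, 399.7 and 427 with 16aOHE. For Mmp14 the E2 difference was 0.01 (95% interval -0.07 to 0.09, adjusted p = 0.921), and its groups overlapped.

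Mmp23 ran at 90.3, 92.5 and 85.4 CPM with scrambled siRNA and vehicle, 77.5, 76.8 and 82.5 with E2 and 82.3, 82.9 and 90.1 with 16aOHE. Under siCYP1B1 it ran at 75.1, 76.0 and 75.3 CPM with vehicle, 64.7, 61.0 and 61.0 with E2 and 72.8, 69.2 and 75.2 with 16aOHE. The E2 difference of Mmp23 was -0.18 (SE 0.0461, adjusted p = 0.00604) in scrambled and -0.27 (SE 0.0461, adjusted p = 0.000148) in siCYP1B1 cells. Adamtsl4 ran at 71.2, 67.5 and 69.4 CPM with scrambled siRNA and vehicle, 55.1, 59.2 and 52.0 with E2 and 67.3, 65.6 and 68.3 with 16aOHE. Its siCYP1B1 levels were 59.0, 51.9 and 56.7 CPM with vehicle, 42.4, 40.5 and 46.1 with E2 and 59.1, 50.4 and 46.6 with 16aOHE. That of Adamtsl4 was -0.32 (SE 0.0698, adjusted p = 0.00156) in scrambled and -0.37 (SE 0.0698, adjusted p = 0.000465) in siCYP1B1 cells, and in neither siRNA did the E2 libraries overlap the vehicle libraries.

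Counted over the families, E2 changed 13 of the 28 tested members with scrambled siRNA, 5 of them higher and 8 lower. The background was 30.0% of all genes tested, with 18.6% higher and 11.4% lower. In siCYP1B1 cells E2 again changed 13 members, 4 higher and 9 lower, against 27.5% of all genes (16.7% higher and 10.8% lower). The members' median difference was -0.05 with scrambled siRNA and 0.01 with siCYP1B1, and that of all genes was 0.03 and 0.04. 16aOHE changed 5 members with scrambled siRNA, 3 higher and 2 lower, against 3.84% of all genes (1.76% higher and 2.08% lower). In siCYP1B1 cells 16aOHE changed 6, 4 higher and 2 lower, against 5.40% (2.53% higher and 2.86% lower), a count that dropped to 3 without the library siCYP1B1 vehicle 2. The members' median difference with 16aOHE was -0.05 in each siRNA, and that of all genes was 0.00 with scrambled siRNA and -0.01 with siCYP1B1. The E2 and the 16aOHE comparisons of an siRNA share its vehicle libraries. With median-of-ratios factors the share of higher genes among all genes called for E2 with scrambled siRNA was 46.9% in place of 62.0%, and with siCYP1B1 it was 45.8% in place of 60.6%, while the members split 5 higher to 8 lower and 4 higher to 10 lower.

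**Figure D2:**
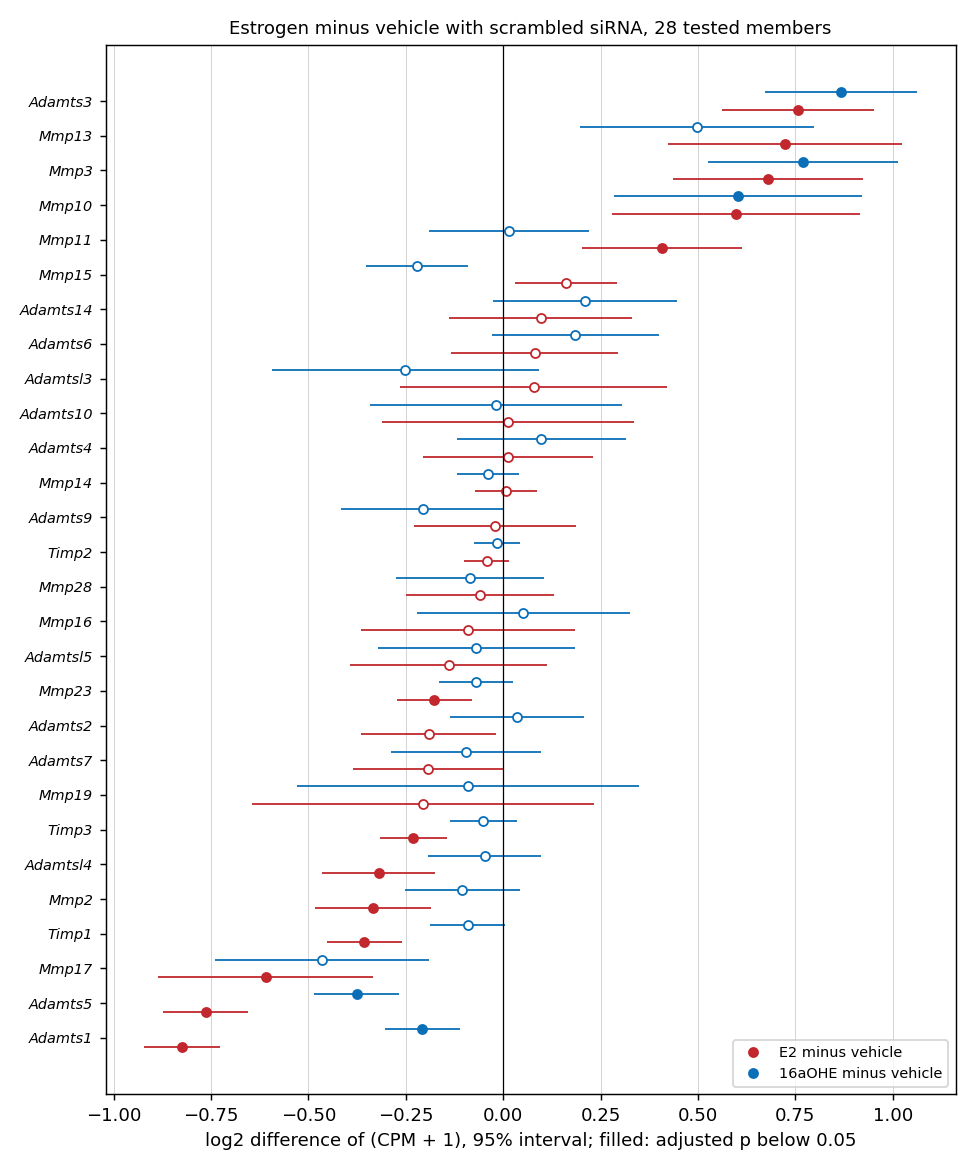
Log2 difference from vehicle (horizontal axis) of each of the 28 tested members for E2 and for 16aOHE with scrambled siRNA; bars are 95% intervals, and filled points passed the adjusted p threshold of 0.05. Mmp3 and Adamts3 lie to the right of 0 for both estrogens, whereas Adamts1 and Adamts5 lie farther to the left with E2 (-0.82 and -0.76) than with 16aOHE (-0.21 and -0.38).

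The 2 estrogens, which had the same dose and time, were compared directly in each siRNA, with p-values adjusted over all genes within each of the 2 comparisons. With scrambled siRNA 8 members differed between 16aOHE and E2, 6 higher with 16aOHE and 2 lower, against 18.4% of all genes (6.78% higher and 11.6% lower). With siCYP1B1 7 differed, 6 higher and 1 lower, against 18.3% (6.59% higher and 11.8% lower). Under median-of-ratios factors the members split 8 higher to 2 lower and 9 higher to 1 lower, and the share of higher genes among all genes called became 54.5% in place of 36.8% and 59.3% in place of 35.9%. Adamts1 was higher with 16aOHE than with E2 by 0.62 (SE 0.0465, adjusted p = 2.10e-08) and 0.60 (SE 0.0465, adjusted p = 2.28e-08) in scrambled and siCYP1B1 cells, and Adamts5 by 0.39 (SE 0.0525, adjusted p = 3.20e-05) and 0.51 (SE 0.0525, adjusted p = 1.03e-06). Timp3 was higher with 16aOHE by 0.18 (SE 0.0414, adjusted p = 0.00409) and 0.24 (SE 0.0414, adjusted p = 0.000430), Timp1 by 0.26 (SE 0.0463, adjusted p = 0.000430) and 0.16 (SE 0.0463, adjusted p = 0.0195), and Adamtsl4 by 0.27 (SE 0.0698, adjusted p = 0.00917) and 0.26 (SE 0.0698, adjusted p = 0.0113). Calls lost on leaving out 1 library were those of Timp1 with siCYP1B1, without siCYP1B1 E2 2 (adjusted p = 0.0507), siCYP1B1 E2 3 (adjusted p = 0.0693) or siCYP1B1 16aOHE 3 (adjusted p = 0.109), and of Adamtsl4, with scrambled siRNA without scrambled E2 3 (adjusted p = 0.0508) and with siCYP1B1 without siCYP1B1 E2 2 (adjusted p = 0.0623) or siCYP1B1 16aOHE 1 (adjusted p = 0.0662). Fitted on only the groups compared, the Adamtsl4 call with siCYP1B1 was also lost (adjusted p = 0.0582).

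Calls in 1 siRNA only were those of Mmp2, higher with 16aOHE than with E2 in scrambled cells by 0.23 (SE 0.0710, adjusted p = 0.0282), and of Mmp23, higher in siCYP1B1 cells by 0.21 (SE 0.0461, adjusted p = 0.00249). Mmp15, a membrane-type MMP, was lower with 16aOHE in scrambled cells, with a difference of -0.38 (SE 0.0629, adjusted p = 0.000237). Under median-of-ratios factors Mmp2 also passed in siCYP1B1 cells (0.23, adjusted p = 0.0279) and Mmp23 in scrambled cells (0.14, adjusted p = 0.0402). The Mmp2 groups overlapped in scrambled cells, and that call was lost with eBayes without trend (adjusted p = 0.0692), on only the groups compared (adjusted p = 0.0548) and without scrambled E2 2 (adjusted p = 0.173), scrambled E2 3 (adjusted p = 0.0841), scrambled 16aOHE 1 (adjusted p = 0.0863) or scrambled 16aOHE 3 (adjusted p = 0.127). For Mmp3, Mmp10, Mmp13 and Adamts3 no difference between the estrogens passed. Mmp3 differed by 0.09 (95% interval -0.15 to 0.33) with scrambled siRNA and 0.30 (0.06 to 0.55) with siCYP1B1, and Adamts3 by 0.11 (-0.08 to 0.30) and 0.10 (-0.09 to 0.30). Mmp10 differed by 0.00 (-0.31 to 0.32) and 0.23 (-0.09 to 0.54), and Mmp13 by -0.23 (-0.53 to 0.07) and 0.09 (-0.21 to 0.39). These intervals do not show that the estrogens act alike on these genes, and with siCYP1B1 the Mmp3 difference passed under median-of-ratios factors (0.34, adjusted p = 0.0462), under quantile normalization (0.36, adjusted p = 0.0353) and without the library siCYP1B1 16aOHE 3 (0.39, adjusted p = 0.0426).

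**Figure D3:**
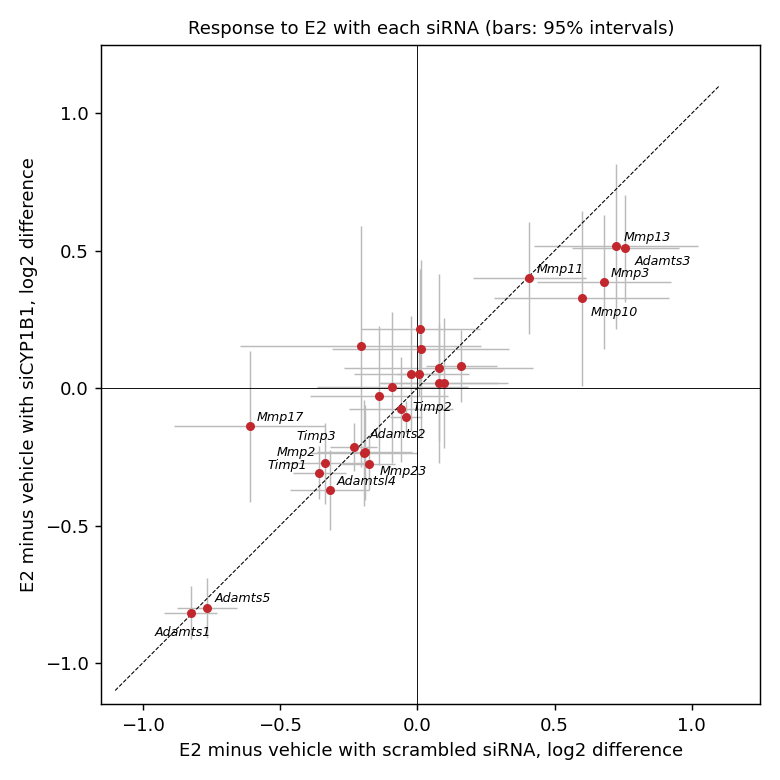
E2 minus vehicle log2 difference of each tested member with scrambled siRNA (horizontal axis) against that with siCYP1B1 (vertical axis), with 95% intervals and the line of equal response; members called in either are named. Most named members lie near the line, and Mmp17 stands off it at -0.61 with scrambled siRNA and -0.14 with siCYP1B1.

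The siRNA comparison asked how the same genes differed between cells given siCYP1B1 and cells given scrambled siRNA, within each arm. The members called were nearly all lower with siCYP1B1. Timp2, Timp3, Adamts1, Adamts5, Adamtsl4, Mmp2 and Mmp23 were lower in each of the 3 arms. The share of all genes that were lower in all 3 arms was not counted, so these members are given as a list only. The count was 9 members with vehicle, all lower, against 20.6% of all genes tested (11.5% higher and 9.12% lower). With E2 it was also 9, all lower, against 21.2% (11.4% higher and 9.80% lower). With 16aOHE it was 12, 1 higher and 11 lower, against 19.7% (10.4% higher and 9.31% lower). Averaged over the 3 arms, 17 members were called, 1 higher and 16 lower, against 44.7% of all genes (26.5% higher and 18.2% lower). The members' median difference was -0.20, -0.22 and -0.16 in the vehicle, E2 and 16aOHE arms, and that of all genes was 0.03, 0.03 and 0.01. With median-of-ratios factors 41.4% rather than 55.7% of all genes called in the vehicle arm were higher, and 41.1% rather than 53.7% in the E2 arm, and the members split 0 higher to 12 lower and 0 higher to 9 lower.

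Timp2 had the smallest standard error of the 28 tested members. The scrambled libraries of Timp2 had 3345, 3416 and 3419 CPM with vehicle, 3255, 3293 and 3336 with E2 and 3321, 3384 and 3364 with 16aOHE. With siCYP1B1 the levels were 2657, 2710.4 and 2659 CPM with vehicle, 2467, 2473 and 2528 with E2 and 2623, 2625 and 2612 with 16aOHE. Every siCYP1B1 library was below every scrambled library, and the Timp2 difference was -0.34 (SE 0.0280, adjusted p = 2.62e-08) with vehicle, -0.40 (SE 0.0280, adjusted p = 1.43e-09) with E2 and -0.36 (SE 0.0280, adjusted p = 1.59e-08) with 16aOHE. Quantile normalization reduced the Timp2 difference to -0.22 with vehicle (adjusted p = 0.0001005) and -0.23 with E2 (adjusted p = 4.41e-05). Timp3 in siCYP1B1 cells had 1365, 1389.9 and 1323 CPM with vehicle, 1179.6, 1212 and 1124 with E2 and 1306, 1403 and 1432 with 16aOHE, again all below the scrambled libraries. Its difference was -0.44 (SE 0.0414, adjusted p = 1.76e-07), -0.43 (SE 0.0414, adjusted p = 2.21e-07) and -0.37 (SE 0.0414, adjusted p = 2.12e-06) in the same order. Timp1 differed little: -0.08 (adjusted p = 0.219) with vehicle, -0.04 (adjusted p = 0.623) with E2 and -0.14 (adjusted p = 0.0364) with 16aOHE, and the last call was lost with eBayes without trend (adjusted p = 0.0626), on only the groups compared (adjusted p = 0.0808) and without scrambled 16aOHE 1 (adjusted p = 0.0733), scrambled 16aOHE 3 (adjusted p = 0.137), siCYP1B1 16aOHE 1 (adjusted p = 0.147) or siCYP1B1 16aOHE 2 (adjusted p = 0.0923).

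**Figure D4:**
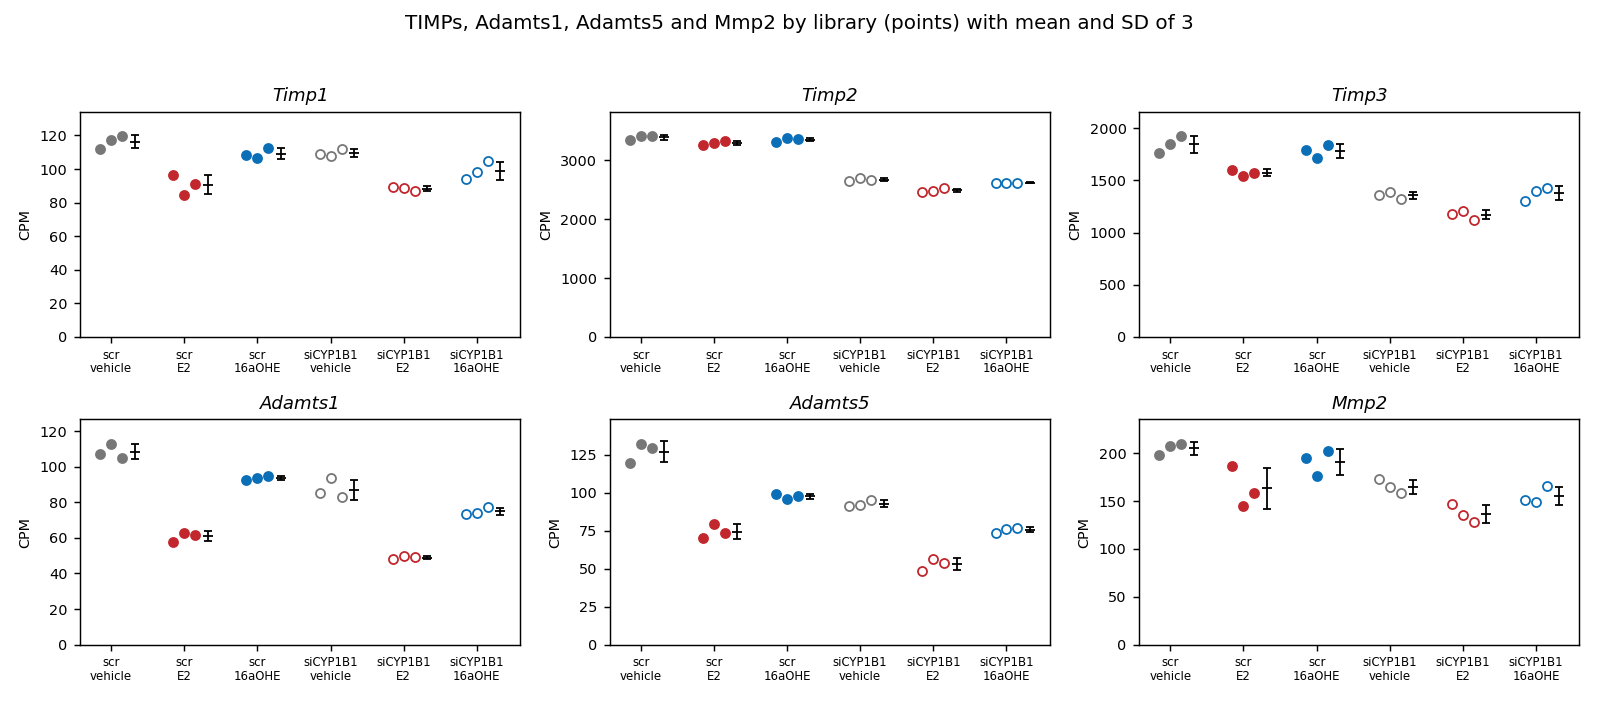
CPM of Timp1, Timp2, Timp3, Adamts1, Adamts5 and Mmp2 in each library (points; filled for scrambled siRNA, open for siCYP1B1), with the mean and SD of the 3 libraries of each group. For Timp2 and Timp3 all 9 siCYP1B1 libraries sit below all 9 scrambled libraries, while the 6 E2 libraries of Timp1 sit between 84.6 and 96.3 CPM.

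The TIMP genes overlap other genes in the annotation. Timp2 overlaps Cep295nl on the same strand (4.30 CPM), Timp3 overlaps Syn3 on the opposite strand (0.284 CPM) and Timp1 overlaps Syn1 on the opposite strand (4.29 CPM). The sources used here do not say whether reads were counted by strand, so that reads of overlapping genes may not be told apart, at levels that are small beside those of the TIMPs.

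For Adamts1 the siRNA difference was -0.31, -0.31 and -0.32 in the vehicle, E2 and 16aOHE arms, and for Adamts5 it was -0.45, -0.48 and -0.36 (adjusted p at most 6.58e-05 in these 6 tests). Adamtsl4 differed by -0.31 (SE 0.0698, adjusted p = 0.00341), -0.36 (SE 0.0698, adjusted p = 0.000868) and -0.37 (SE 0.0698, adjusted p = 0.000834). Mmp23 differed by -0.24, -0.34 and -0.23, with adjusted p-values of 0.000808, 1.84e-05 and 0.00130. For Adamts1, Adamts5, Adamtsl4 and Mmp23 the siCYP1B1 and scrambled groups did not overlap in any arm. Mmp2 differed by -0.31 (SE 0.0710, adjusted p = 0.00364), -0.25 (SE 0.0710, adjusted p = 0.0154) and -0.29 (SE 0.0710, adjusted p = 0.00588), with overlapping groups in the E2 arm, where the call was lost without scrambled E2 1 (adjusted p = 0.113) or siCYP1B1 E2 3 (adjusted p = 0.0832). Adamts5, lower with the siRNA and with E2, was at 127 ± 6.73 CPM (SD, n = 3) with scrambled siRNA and vehicle and at 53.0 ± 3.99 with siCYP1B1 and E2.

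**Figure D5:**
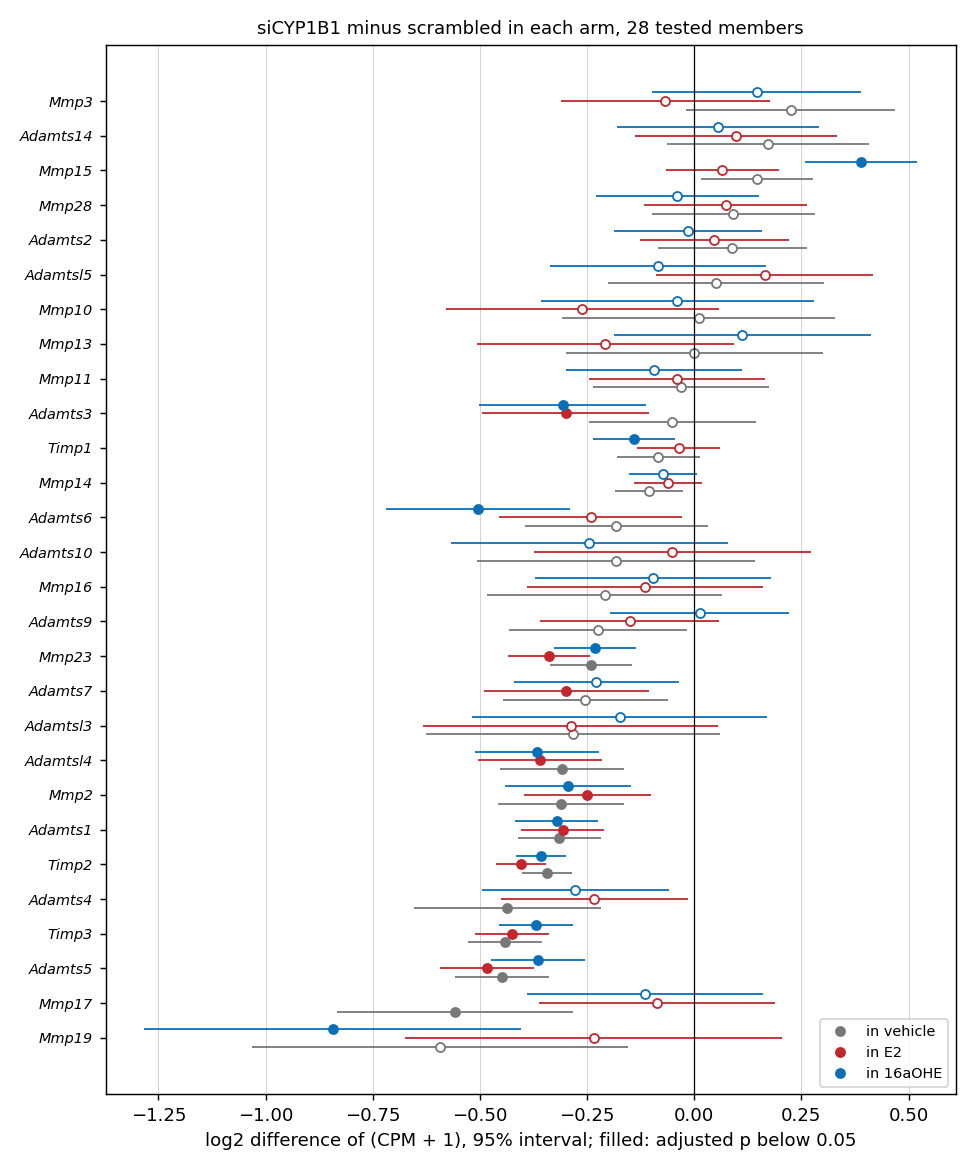
Log2 difference of siCYP1B1 from scrambled siRNA for each of the 28 tested members in the vehicle, E2 and 16aOHE arms; bars are 95% intervals, and filled points passed the adjusted p threshold of 0.05. Timp2, Timp3, Adamts1, Adamts5, Adamtsl4, Mmp2 and Mmp23 lie to the left of 0 in all 3 arms, and Mmp15 lies to the right with 16aOHE (0.39).

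Several members were called in some arms only. Mmp17, a membrane MMP with a lipid anchor, had 13.9, 11.4 and 12.9 CPM with scrambled siRNA and vehicle, 6.66, 9.29 and 8.18 with E2 and 7.53, 10.6 and 8.85 with 16aOHE. With siCYP1B1 the values were 7.18, 8.44 and 9.43 CPM with vehicle, 6.39, 7.87 and 8.21 with E2 and 7.82, 7.36 and 9.43 with 16aOHE. The 3 scrambled vehicle libraries thus stood above the other 15. The siRNA difference of Mmp17 was -0.56 (SE 0.132, adjusted p = 0.00482) with vehicle, -0.09 (adjusted p = 0.684) with E2 and -0.12 (adjusted p = 0.595) with 16aOHE. Its E2 difference was -0.61 (SE 0.132, adjusted p = 0.00147) with scrambled siRNA and -0.14 (adjusted p = 0.474) with siCYP1B1, and for 16aOHE with scrambled siRNA it was -0.47 (adjusted p = 0.0525). That last difference of Mmp17 passed with a pseudocount of 4 (adjusted p = 0.0394), with median-of-ratios factors (adjusted p = 0.0492), on only the groups compared (adjusted p = 0.0324) and without scrambled 16aOHE 2 (adjusted p = 0.0289).

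Mmp15 had 21.6, 22.8 and 21.3 CPM with scrambled siRNA and vehicle, 23.5, 25.3 and 24.97 with E2 and 17.4, 19.3 and 19.3 with 16aOHE. The siCYP1B1 values were 23.3, 24.0 and 25.7 CPM with vehicle, 24.97, 25.8 and 26.6 with E2 and 25.5, 25.4 and 23.2 with 16aOHE. The 3 scrambled 16aOHE libraries were the lowest of the 18, and Mmp15 was the only member called higher with siCYP1B1 in the 16aOHE arm, by 0.39 (SE 0.0629, adjusted p = 0.000173). With vehicle and with E2 the siRNA differences were 0.15 (adjusted p = 0.108) and 0.07 (adjusted p = 0.495). The difference of 16aOHE from vehicle in scrambled cells was -0.22 (adjusted p = 0.0528), which passed with a filter at 5 CPM (adjusted p = 0.0485) and with eBayes without trend (adjusted p = 0.0369). The E2 difference there was 0.16 (adjusted p = 0.0579), which passed with eBayes without trend (adjusted p = 0.0364).

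Adamts4, another protease of aggrecan and versican, had 7.19, 7.05 and 8.05 CPM with scrambled siRNA and vehicle, 7.76, 7.94 and 6.81 with E2 and 8.05, 8.63 and 7.40 with 16aOHE. With siCYP1B1 it had 4.88, 6.06 and 4.81 CPM with vehicle, 6.21, 6.67 and 5.81 with E2 and 5.90, 6.08 and 7.40 with 16aOHE. It was called lower with siCYP1B1 in the vehicle arm, with a difference of -0.44 (SE 0.105, adjusted p = 0.00528), where the groups did not overlap. With E2 the Adamts4 difference was -0.23 (adjusted p = 0.121), again without overlap, and with 16aOHE it was -0.28 (adjusted p = 0.0676). The 16aOHE difference passed with eBayes without trend (adjusted p = 0.0481) and without siCYP1B1 16aOHE 3 (adjusted p = 0.0319). On the mean of the 3 arms Adamts4 was called lower, with -0.32 (adjusted p = 0.000236). Adamts6, a protease linked to fibrillin microfibrils, had 9.97, 8.83 and 9.97 CPM with scrambled siRNA and vehicle, 10.8, 9.94 and 9.85 with E2 and 13.4, 10.2 and 9.71 with 16aOHE. The siCYP1B1 libraries of Adamts6 had 8.68, 8.02 and 8.28 CPM with vehicle, 8.70, 8.55 and 8.13 with E2 and 8.18, 6.51 and 7.84 with 16aOHE. Adamts6 was called lower in the 16aOHE arm, with a difference of -0.50 (SE 0.103, adjusted p = 0.00159), and on the mean of the 3 arms, with -0.31 (SE 0.0594, adjusted p = 0.000244).

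Mmp19 had 4.09, 2.00 and 1.54 CPM with scrambled siRNA and vehicle, 1.37, 2.09 and 2.44 with E2 and 2.39, 2.35 and 1.83 with 16aOHE. With siCYP1B1 its values were 1.75, 0.902 and 1.15 CPM with vehicle, 1.45, 1.44 and 1.59 with E2 and 0.518, 1.15 and 0.708 with 16aOHE. The 16aOHE groups did not overlap, and the siRNA difference there was -0.84 (SE 0.211, adjusted p = 0.00758). With vehicle it was -0.59 (adjusted p = 0.0510) and with E2 -0.23 (adjusted p = 0.466). The vehicle difference passed with median-of-ratios factors (adjusted p = 0.0466) and without scrambled vehicle 3 (adjusted p = 0.0175) or siCYP1B1 vehicle 1 (adjusted p = 0.0320). On the mean of the 3 arms Mmp19 was called lower, with -0.56 (adjusted p = 0.000859). Mmp19 overlaps Tmem198b (16.6 CPM) on the opposite strand and its values were not whole reads in 16 of 18 libraries, so that part of its signal may be shared with that gene. Adamts3 was lower with siCYP1B1 in the E2 arm, with a difference of -0.30 (SE 0.0935, adjusted p = 0.0259), and in the 16aOHE arm, with -0.31 (SE 0.0935, adjusted p = 0.0245). The first of these Adamts3 calls was lost without scrambled E2 1 (adjusted p = 0.0792), scrambled E2 2 (adjusted p = 0.148), siCYP1B1 E2 1 (adjusted p = 0.0820) or siCYP1B1 E2 2 (adjusted p = 0.0810), and the second without scrambled 16aOHE 1 (adjusted p = 0.0925), scrambled 16aOHE 2 (adjusted p = 0.0670) or siCYP1B1 16aOHE 3 (adjusted p = 0.110). With vehicle the siRNA difference of Adamts3 was -0.05 (adjusted p = 0.750). On the mean of the 3 arms Adamts3 was called lower, with -0.22 (adjusted p = 0.00233), and that call was lost in none of the alternative fits. Adamts7, a protease of cartilage oligomeric matrix protein, was lower in the E2 arm, with a difference of -0.30 (SE 0.0925, adjusted p = 0.0253), a call lost without scrambled E2 1 (adjusted p = 0.105), scrambled E2 2 (adjusted p = 0.0985), siCYP1B1 E2 2 (adjusted p = 0.0824) or siCYP1B1 E2 3 (adjusted p = 0.0735). Its difference was -0.25 (adjusted p = 0.0566) with vehicle, where the groups did not overlap, and -0.23 (adjusted p = 0.0889) with 16aOHE. The vehicle difference passed with median-of-ratios factors (adjusted p = 0.0374), quantile normalization (adjusted p = 0.0303), only the groups compared (adjusted p = 0.0381) and without siCYP1B1 vehicle 1 (adjusted p = 0.0266). The 16aOHE difference passed without siCYP1B1 16aOHE 1 (adjusted p = 0.0138).

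Averaged over the 3 arms, differences also passed for Mmp14, with -0.08 (SE 0.0220, adjusted p = 0.00552), Timp1, with -0.09 (SE 0.0267, adjusted p = 0.0117), and Adamts7, with -0.26 (SE 0.0534, adjusted p = 0.000472). In siCYP1B1 cells Mmp14 had 379, 394 and 379 CPM with vehicle, 399, 399 and 396 with E2 and 367, 386 and 395 with 16aOHE. Adamtsl3 was called lower, with a difference of -0.25 (SE 0.0953, adjusted p = 0.0392), from a mean level over the 18 libraries of 1.49 CPM, and this call was lost under quantile normalization (adjusted p = 0.0959) and without scrambled vehicle 1 (adjusted p = 0.0604), scrambled vehicle 2 (adjusted p = 0.0668), scrambled E2 1 (adjusted p = 0.0983), scrambled 16aOHE 1 (adjusted p = 0.0777), siCYP1B1 vehicle 2 (adjusted p = 0.0592), siCYP1B1 vehicle 3 (adjusted p = 0.0900), siCYP1B1 E2 2 (adjusted p = 0.0518), siCYP1B1 E2 3 (adjusted p = 0.0725), siCYP1B1 16aOHE 1 (adjusted p = 0.0595) or siCYP1B1 16aOHE 2 (adjusted p = 0.0520).

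Whether an estrogen response differed between the siRNAs was tested as an interaction. For E2 the percentage of genes called was 0 and for 16aOHE it was 0 as well, so no member was called. At an unadjusted p under 0.05, limma gave 470 of 11835 genes for E2 and 596 for 16aOHE, among them 1 and 3 members. Without trend 0 and 1 genes were called, and with median-of-ratios factors 0 and 0. The members were Mmp17 for E2 (0.47, 95% interval 0.08 to 0.86, adjusted p = 0.998) and Mmp17, Mmp15 and Adamts6 for 16aOHE (0.44, 0.24 and -0.32, adjusted p = 0.922, 0.899 and 0.922). A call in 1 siRNA and not in the other was therefore not shown to be a difference between them. For Adamts1 the E2 interaction was 0.01 (95% interval -0.13 to 0.14), and for Timp3 it was 0.02 (-0.11 to 0.14).

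The remaining tested members were not called in any of the 12 contrasts with all libraries. They were Adamts9, Adamts10, Adamts14, Adamtsl5, Mmp16 and Mmp28, with mean levels over the 18 libraries of 21.7, 34.4, 7.13, 47.1, 5.12 and 8.08 CPM. Without the library siCYP1B1 16aOHE 1, Adamts10 was called lower with siCYP1B1 in the 16aOHE arm (-0.45, adjusted p = 0.0285) and on the mean of the arms (-0.23, adjusted p = 0.0180), and lower with 16aOHE than with E2 in siCYP1B1 cells (-0.43, adjusted p = 0.0358). Adamts9 was called lower with siCYP1B1 in the vehicle arm without scrambled vehicle 1 (-0.33, adjusted p = 0.0276), and on the mean without that library (-0.16, adjusted p = 0.0248) or without scrambled E2 1 (-0.15, adjusted p = 0.0320). Mmp16 was called lower on the mean without siCYP1B1 E2 2 (-0.19, adjusted p = 0.0408). The spread within groups was wide for some of them. Adamts10, a protease linked to fibrillin microfibrils, ranged from 24.9 to 43.2 CPM, and Adamtsl5 ranged from 36.1 to 57.2 CPM. In all 6 groups the library listed first had the highest level of Adamts10, of Adamtsl5 and of Adamts6. The same held for 516 of the 11835 genes tested (4.36%), and the labels give no batch. Whether the order of the libraries goes with a batch, and its part in the calls of Adamts6, was not tested. Mmp28 overlaps 1700020L24Rik (0.607 CPM) on the opposite strand, and 8 of the 11 libraries in which it was low enough to be checked had fractional reads.

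Genes that act with these families were described by 6 lists. Their counts stand against 18.6% of all genes higher and 11.4% lower for E2 and 1.76% and 2.08% for 16aOHE with scrambled siRNA, and 26.5% and 18.2% on the mean of the siRNA arms. Among 17 tested matrix proteins and proteoglycans that these enzymes cut, 0 rose and 8 fell with E2 in scrambled cells (median -0.15, all genes 0.03), led by the collagen chains Col2a1 (-1.42), Col3a1 (-0.73) and Col1a2 (-0.68). In siCYP1B1 cells 0 rose and 6 fell with E2, against 16.7% of all genes higher and 10.8% lower. With 16aOHE 3 rose and 3 fell there, against 2.53% higher and 2.86% lower. In scrambled cells with 16aOHE 2 rose and 3 fell (median -0.01, all genes 0.00), the latter Col3a1 (-0.26), Dcn (-0.24) and Col1a2 (-0.20). On the mean of the siRNA arms 4 were higher and 11 lower (median -0.18, all genes 0.03), led by decorin (Dcn, -0.62), fibronectin (Fn1, -0.54) and biglycan (Bgn, -0.50).

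Among 6 tested genes of plasminogen activation, the system whose product plasmin activates several pro-MMPs, 2 rose and 2 fell with E2 in scrambled cells (median 0.03), including the inhibitors Serpinb2 (0.69) and Serpine2 (-0.33). With 16aOHE 3 rose and 0 fell (median 0.17), among them Serpinb2 (0.82) and the urokinase gene Plau (0.24). With siCYP1B1 1 was higher and 1 lower (median 0.03), namely Serpinb2 (0.19) and the urokinase receptor Plaur (-0.24). Among 19 tested transcription factors known to act on protease genes, 1 rose and 4 fell with E2 (median -0.05), including Runx1 (0.43), Fosl1 (-0.28) and Jun (-0.23). With 16aOHE 3 rose and 0 fell (median 0.02): Egr1 (0.63), Fosl2 (0.21) and Jun (0.16). With siCYP1B1 5 were higher and 4 lower (median 0.03), among them Fosl1 (0.36), Etv5 (-0.29) and Fosl2 (-0.23).

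Among 13 tested activators, cofactors, other inhibitors and clearance genes, 2 rose and 6 fell with E2 (median 0.01), led by the procollagen C-proteinase enhancers Pcolce2 (-0.74) and Pcolce (-0.34) and by Spock2 (-0.49). With 16aOHE 0 rose and 2 fell (median -0.02), Pcolce2 (-0.32) and the proprotein convertase Pcsk6 (-0.23). On the siRNA mean 3 were higher and 4 lower (median -0.04), led by Spock2 (-0.26), Pcsk5 (-0.25) and caveolin (Cav1, -0.17). Of 9 tested ADAM proteases, membrane relatives that shed surface proteins, 3 rose and 1 fell with E2 (median 0.07), led by Adam12 (-0.32), Adam17 (0.24) and Adam22 (0.23). With 16aOHE 2 rose (median 0.06), Adam22 (0.35) and Adam9 (0.12), and with siCYP1B1 1 was higher and 3 lower (median -0.04), led by Adam12 (0.49) and Adam9 (-0.19). Of 7 other tested matrix peptidases 3 rose and 1 fell with E2 (median 0.01; Ctsl 0.29, Ctsb 0.20, Htra1 0.16), 1 rose with 16aOHE (median 0.06; Htra1 0.18), and 2 were higher and 2 lower with siCYP1B1 (median -0.02; Htra3 0.70, Prss23 -0.18, Ctsl -0.10).

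Markers of several cell types moved with both factors, and in bulk RNA fewer cells of a type and less RNA per cell cannot be told apart. The summed level of 8 mesothelial markers was 4906 to 4989 CPM with scrambled siRNA and vehicle, 3797 to 4048 with E2 and 4451 to 4745 with 16aOHE. With siCYP1B1 it was 3741 to 3902 CPM with vehicle, 3019 to 3125 with E2 and 3497 to 3642 with 16aOHE, so that it was lower with E2 and with siCYP1B1, as were Adamts1, Adamts5, Timp3 and Mmp2. The summed fibroblast and pericyte markers ran from 6046 to 6369 CPM with scrambled siRNA and vehicle to 3208 to 3316 with siCYP1B1 and E2. The endothelial list ran from 274 to 311 CPM down to 142 to 148 between the same groups, with Pecam1 and Vwf near 0. Smooth muscle markers summed to 132 to 137 and 98.7 to 107 CPM in those groups. Most of the fibroblast and pericyte sum was Col3a1 and Col1a1, with means of 2488 and 1946 CPM over the 18 libraries. Both also stand in the list of matrix proteins above, as does Dcn (309 CPM). Of 5 tested fibroblast and pericyte markers 1 rose and 3 fell with E2 in scrambled cells, and 4 were lower on the siRNA mean. Of 7 tested mesothelial markers 6 fell with E2 in scrambled cells and 6 were lower on the siRNA mean, and 0 rose. The part of these shifts in the differences of the protease and inhibitor genes was not tested. The leukocyte list, which covers the cells that make several MMPs, summed to 32.4 to 38.4 CPM in all 18 libraries. Its largest members were Cd14 and Cd68, with means of 22.0 and 12.3 CPM.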

How the data were processed

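RNA sequencing was done on 18 libraries in 6 groups of 3, grouped by the siRNA and estrogen of the labels. Transfection used lipid and 5 ul of siRNA stock (10 uM) per 60 mm dish after fresh medium for 2 hours, and the estrogens followed 24 hours later in 5% serum. The authors deposited CPM values with an offset of 1e-04 added to each, which was subtracted. TopHat2, Partek and mm10 are named per the submitters' processing notes, with versions not given in the sources used here, and replicate pooling is not recorded. Within a tolerance of 0.1 reads, 93.5% to 94.4% of the values under 200 reads were whole. No count test was run, because the deposited unit is CPM. Counting error was not modelled apart from the spread between libraries. Gene ends are the deposited stop minus 1, which equalled the RefSeq end for 56.7% of 14898 matched symbols against 4.13% for the stop as listed.

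Values were tested as log2(CPM + 1), computed from the deposited CPM, so differences understate changes of genes near 1 CPM. A linear model of 6 group means was fitted to all 18 libraries and 11835 genes whose mean reached 1 CPM (3453 did not) with limma 3.58.1 in R 4.3.3 (eBayes with trend). Adjusted p-values are Benjamini-Hochberg over all genes tested within each of 12 contrasts. The members and the lists were chosen with earlier results of these data known. Library values are given for members called with an absolute log2 difference of at least 0.3 in an arm of the siRNA comparison or for an estrogen against vehicle, and for the TIMPs and Mmp14; up to 3 called genes are named per list, and some values are not reported here. Libraries are numbered within a group in listed order, as names only. Log-scale correlations lay between 0.9945 and 0.9978 for libraries of the same group and between 0.9864 and 0.9967 otherwise. The fitting step was tested on simulated data. Alternatives were other pseudocounts, filters, scalings, the prior without trend, only the groups compared, and each library left out.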

Additional observations from a re-analysis of the deposited data

How the results depend on the processing

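Of 99 calls of members over the 12 contrasts, 80 held under every alternative run for them and 19 were lost in at least 1. These alternatives were 13 or 14 for a comparison of 2 groups, with only the libraries of those groups left out in turn, and 24 or 25 for the mean of the 3 arms. The lost calls are given beside the results above, with the library or setting concerned. The number of members called for 16aOHE against vehicle with siCYP1B1, 6 with all libraries, ranged from 3 to 6 over the fits that left out 1 library, and was 3 without the library siCYP1B1 vehicle 2. Of the 237 member differences that did not pass, 25 passed in at least 1 of those settings or fits. A single call changed direction: the E2 difference of Timp2 with siCYP1B1 was -0.10 as deposited and 0.0445 under quantile normalization (adjusted p = 0.368). Median-of-ratios factors and quantile normalization each moved the median difference of all genes by less than 0.1 in every contrast. No paired analysis was possible because the labels carry no replicate numbers. A pseudocount of 4 lowered the log2 differences of Mmp10, Mmp19 and Adamtsl3 by more than 1.5 times without ending a call. A pseudocount of 0.25 moved the siRNA difference of Mmp19 with 16aOHE to -1.27, and quantile normalization moved the 16aOHE minus E2 difference of Timp3 with siCYP1B1 to 0.15, both still called. Members near 1 CPM, such as Mmp10 (mean 1.64 CPM) and Adamtsl3 (mean 1.49 CPM), rest on few reads, and at 14.1 to 38.5 reads per CPM none of the 12 low members was called.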
